A study of Mus musculus with 12 samples.

Results

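Synaptic vesicle and release machinery genes encode the proteins that fill the presynaptic terminal with vesicles, dock them at the active zone and fuse them with the plasma membrane when calcium enters. The genes were chosen by symbol: synaptotagmins, synapsins, syntaxins, SNAP and VAMP proteins, syntaxin-binding proteins, complexins, Rab3 proteins, the active zone families Unc13, Rims, *Bsn*, *Pclo* and Erc, and the vesicle membrane proteins Sv2 and *Syp*. Of the 49315 genes listed in the count table, 76 carried such a symbol and 74 had at least 50 counts over all mice. The 2 that did not reach this minimum were *Cplx4* and *Syt8*. Of the 74, 73 passed the expression filter and were tested, and *Vamp9* was not tested.

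Brains of 12 mice were profiled by bulk RNA-sequencing 14 d after stroke (whole brains or whole hemispheres, since the study's text uses both terms), and 6 of the mice carried WT BM cells and 6 carried *Tet2*-KO BM cells. All were male CD45.1 Pep Boy recipients with intact *Tet2* that were irradiated at 8 to 12 weeks of age with the head shielded, and 90% of the BM they received came from CD45.1 *Tet2*+/+ donors. The other 10% came from CD45.2 donors, which were *Tet2*-/- in the *Tet2*-KO group and *Tet2*+/+ in the WT group. All mice underwent occlusion of the right middle cerebral artery for 30 min, between 8 and 10 weeks after the transplant. The recipients' own cells, neurons and glia included, thus had intact *Tet2* in both groups, and *Tet2*-deficient cells were at most a part of the blood-derived cells. Each WT library held 12000261 to 15340787 counts and each *Tet2*-KO library 12625047 to 21049763. The comparison asked whether the brain's transcripts after stroke differed with the genotype of the transplanted BM cells.

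Fusion of a vesicle depends on SNARE proteins, a VAMP on the vesicle and a syntaxin with a SNAP protein on the plasma membrane, which zip into one complex. Synaptotagmins sense calcium, complexins hold and release the assembled complex, and syntaxin-binding proteins and Unc13 proteins prepare it. Neurons use a specialised set of these proteins for transmitter release, whereas other members of the same families move membranes inside every cell or release granules from leukocytes. The symbols chosen here take in both kinds. In bulk tissue, fewer cells of a type and less RNA per cell cannot be told apart.

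Many release machinery genes had higher levels in the brains of mice with *Tet2*-KO BM cells. By edgeR, the log2 fold change was above 0 in 54 of the 73 and in 52.3% of all 20290 genes tested. The median log2 fold change of *Tet2*-KO over WT was 0.14 over the release machinery genes and 0.01 over all genes tested. At an unadjusted p below 0.05, 36 were higher and 6 were lower, where 10.8% of all tested genes were higher and 12.2% were lower. Among the 36 higher genes the log2 fold change lay between 0.14 (*Syt11*) and 0.49 (*Cplx3*), with a median of 0.24. The 6 lower genes were *Stx11*, *Vamp8*, *Stx4a*, *Vamp3*, *Snap23* and *Snap29*, all of them SNARE proteins known from leukocytes, glia or all cells. Other SNARE proteins of this kind did not follow them. *Stx3*, *Stx7* and *Vamp5* had no such p, and *Snap47* was higher. None of the 73 passed 0.05 after Benjamini-Hochberg adjustment over all genes in edgeR, where 0.0246% of all genes did, and the smallest adjusted p among them was 0.110 (*Stx11* and *Cplx3*). With the DESeq2 Wald test on the same filtered genes, 14 were higher and 2 lower past the adjusted threshold, against 2.71% higher and 4.63% lower of all genes. The study used this test and describes no such filter. Run on the unfiltered table, a setting chosen after seeing the data, it gave 3 higher and 2 lower, against 0.544% and 1.9% of all genes. With limma-voom on the filtered genes, 17 were higher and 2 lower, against 2.91% and 7.01%.

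Within edgeR, the call also depended on a single library. When *Tet2*-KO replicate 5 was left out, 22 release machinery genes were higher and 4 lower past the adjusted threshold of edgeR, with *Syn1* at an adjusted p of 0.0161 and *Vamp8* at 0.0177. In that fit 3.70% of all genes were higher and 7.30% lower. The levels of activated phagocyte markers in this mouse were also unlike those of the other *Tet2*-KO mice, as described further on, and their part in the result was not tested.

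**Figure D1:**
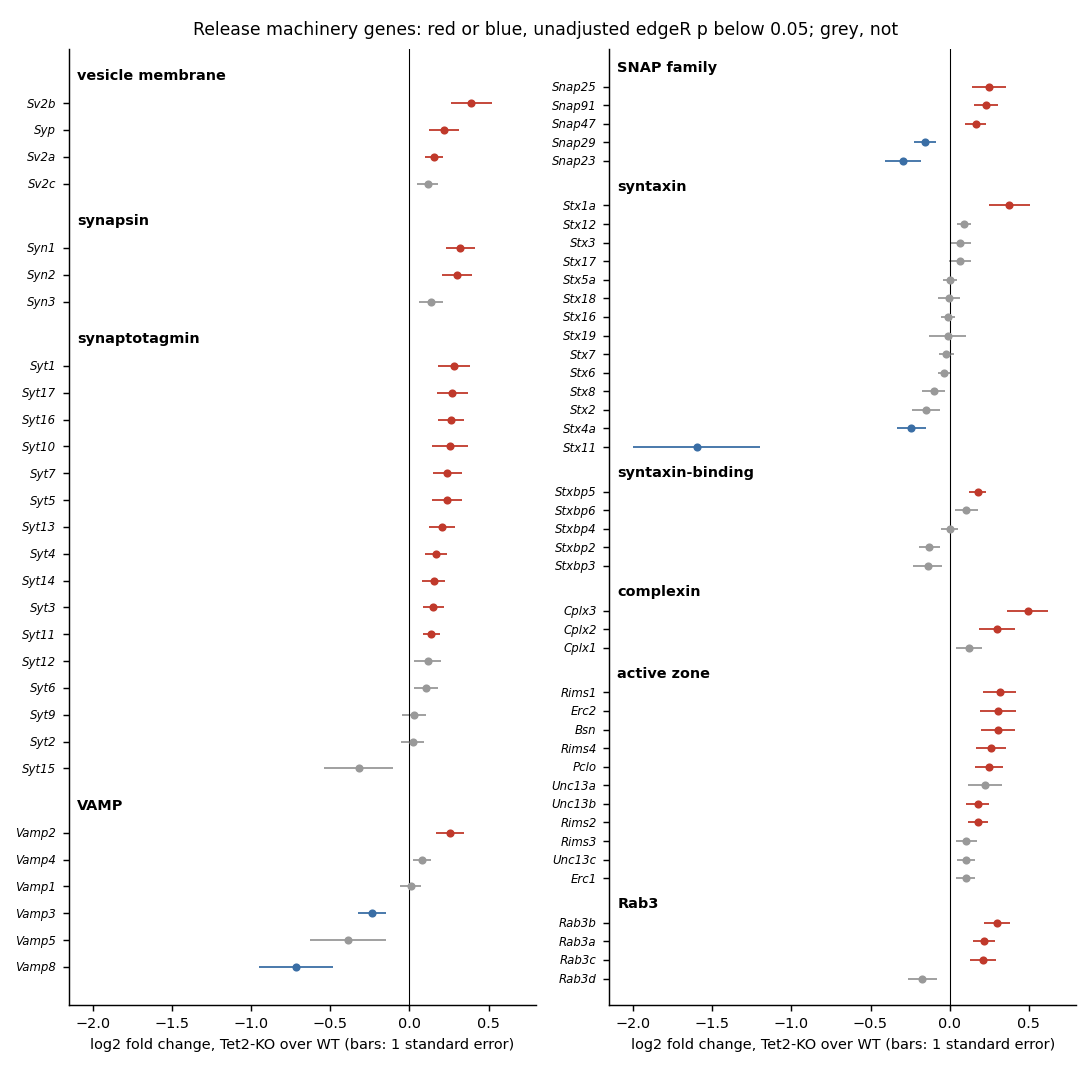
Log2 fold change of *Tet2*-KO over WT for 71 tested genes, grouped by role, with bars of 1 SE; red and blue mark genes with an unadjusted edgeR p below 0.05 that were higher or lower, and grey marks the rest. All 11 active zone points and 15 of the 16 synaptotagmin points lie above 0, whereas the 6 blue points all belong to the syntaxin, SNAP and VAMP families.

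Synapsins coat synaptic vesicles and tie them to the actin skeleton of the terminal. *Syn1* (ENSMUSG00000037217, chrX:20860511-20921004 in GRCm38) was among the most abundant release machinery genes per length. Its level in WT mice was 427 CPM at the lowest, 547 at the median and 576 at the highest, where CPM gives the reads of a gene relative to the library total after TMM scaling. In *Tet2*-KO mice the lowest, median and highest were 539, 697 and 735 CPM. Of the *Tet2*-KO mice, 4 lay above every WT mouse, replicates 4 and 5 lay among the WT mice, and WT replicate 2 was far below all others. The means were 529 ± 52.5 and 662 ± 85.0 CPM (SD, n = 6 mice each), and *Tet2*-KO differed from WT by a log2 fold change of 0.32 (SE, the standard error, 0.090, edgeR adjusted p = 0.116). *Syn2* was between 283 and 424 CPM in WT mice, with a median of 403, and between 402 and 536 in *Tet2*-KO mice, with a median of 495. Its groups overlapped only through *Tet2*-KO replicate 5, and its log2 fold change was 0.30 (SE 0.095, edgeR adjusted p = 0.124). *Syn3*, the least abundant synapsin, was at 34.0 ± 3.83 and 37.3 ± 2.78 CPM (SD, n = 6 mice each) with an unadjusted p of 0.0944 in edgeR.

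The sequence upstream of *Syn1* is shown because its promoter is a textbook case of neuron-restricted transcription, and those of *Stx11* and *Vamp8* are shown as the pair with the most negative log2 fold changes. They were taken from the RefSeq promoter windows of GRCm38.p6, which hold 300 bases around each start site, and only the bases outside the annotated gene are printed, 5′ to 3′ on the minus strand, on which all of these genes lie. Capitals mark TTCAGCACC, one side of the RE1 element bound by the neuronal repressor REST, TGACGTCA, the cyclic AMP response element, or GGGCGG, the GC box, on either strand. The stretches are chrX:20921005-20921168 for *Syn1*, chr10:12964299-12964509 for *Stx11* and chr6:72390704-72390917 for *Vamp8*.
Syn1: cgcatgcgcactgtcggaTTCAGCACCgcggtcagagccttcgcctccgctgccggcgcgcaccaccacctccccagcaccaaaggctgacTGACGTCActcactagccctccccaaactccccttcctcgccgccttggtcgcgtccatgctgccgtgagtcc
Stx11: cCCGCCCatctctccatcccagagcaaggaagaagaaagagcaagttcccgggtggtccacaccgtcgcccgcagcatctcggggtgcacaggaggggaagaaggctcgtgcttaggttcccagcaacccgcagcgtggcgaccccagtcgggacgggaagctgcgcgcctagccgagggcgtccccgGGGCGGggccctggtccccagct
Vamp8: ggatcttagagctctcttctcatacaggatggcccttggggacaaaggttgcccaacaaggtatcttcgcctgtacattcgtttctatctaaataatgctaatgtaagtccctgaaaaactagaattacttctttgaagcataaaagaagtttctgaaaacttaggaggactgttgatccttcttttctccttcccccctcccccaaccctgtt

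A promoter window was found for 60 of the 74 genes. TTCAGCACC lay in 2 of the 60 (*Syn1* and *Unc13a*) and in 0.433% of all 27025 genes with a window. TGACGTCA lay in 2 of the 60 (*Syn1* and *Stxbp3*) and in 2.03% of all genes. The GC box lay in 48 of the 60 and in 38.2% of all genes, and TATAAA, the core of the TATA box, in 4 of the 60 (*Rab3b*, *Stx2*, *Stx3* and *Sv2b*) and in 15.7% of all genes. Both strands were searched and none of these motifs contains another. A match describes the letters of the window and is not evidence of binding.

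Of the 4 vesicle membrane genes, 3 were higher at an unadjusted p below 0.05. *Syp*, the synaptophysin gene and a common stain for terminals, was at 412 ± 47.9 CPM in WT and 479 ± 62.3 CPM in *Tet2*-KO mice (SD, n = 6 mice each), a log2 fold change of 0.22 (SE 0.094, edgeR adjusted p = 0.189). *Sv2a*, the vesicle protein that binds the antiepileptic drug levetiracetam, had a log2 fold change of 0.16 (SE 0.057). *Sv2b*, a form abundant in glutamatergic neurons, had the second highest log2 fold change of all 73 genes, 0.39 (SE 0.13, edgeR adjusted p = 0.132). *Sv2c*, the form of the basal ganglia, was at 90.5 ± 4.80 and 98.0 ± 10.4 CPM (SD, n = 6 mice each), with an unadjusted p of 0.0966.

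Of the 16 synaptotagmins, 15 had positive log2 fold changes, 11 of them at an unadjusted p below 0.05, and none was lower at that threshold. Their median log2 fold change was 0.16. *Syt1*, the calcium sensor of fast release in the forebrain, was at 1075 ± 143 CPM in WT and 1306 ± 164 CPM in *Tet2*-KO mice (SD, n = 6 mice each), a log2 fold change of 0.28 (SE 0.10, edgeR adjusted p = 0.142). *Syt2*, the corresponding sensor of many hindbrain and fast-spiking neurons, was at 98.1 ± 7.46 and 99.6 ± 10.8 CPM (SD, n = 6 mice each), a log2 fold change of 0.02 (SE 0.073) whose sign was not stable under other settings. The same held for *Vamp1*, the VAMP of hindbrain and motor neurons, at 172 ± 13.0 and 174 ± 16.4 CPM (SD, n = 6 mice each). No test of *Syt1* against *Syt2* was made.

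*Syt16* was between 33.1 and 44.8 CPM in WT mice, with a median of 42.9, and between 42.0 and 57.0 in *Tet2*-KO mice, with a median of 50.1. It is an atypical synaptotagmin that lacks the calcium-binding residues. Of the *Tet2*-KO mice, 5 lay above every WT mouse, and the log2 fold change was 0.26 (SE 0.083, edgeR adjusted p = 0.124). *Syt11*, a synaptotagmin that does not bind calcium and is also found on membranes of glia and phagocytes, was at 625 ± 25.6 and 688 ± 43.3 CPM (SD, n = 6 mice each), a log2 fold change of 0.14 (SE 0.054, edgeR adjusted p = 0.160).

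The SNARE proteins held the most abundant genes per length, *Vamp2* and *Snap25*, and all 6 of the lower genes, and no test of neuronal against other SNARE proteins was made. *Snap25*, the plasma membrane SNARE of neurons, was at 1132 ± 145 and 1343 ± 200 CPM (SD, n = 6 mice each), a log2 fold change of 0.25 (SE 0.11, edgeR adjusted p = 0.187). *Snap23*, its relative in non-neuronal cells, was at 28.6 ± 4.24 and 23.3 ± 3.98 CPM, a log2 fold change of -0.30 (SE 0.11, edgeR adjusted p = 0.155). *Snap29*, which serves autophagosomes and endosomes, had a log2 fold change of -0.16 (SE 0.070), and *Snap47*, a broadly expressed member named after its value was seen, had one of 0.16 (SE 0.065, unadjusted p = 0.0235 in edgeR). The ratio of *Snap25* to *Snap23* was between 23.9 and 49.9 in WT mice, with a median of 42.2, and between 37.9 and 78.6 in *Tet2*-KO mice, with a median of 62.3. This ratio within a library does not depend on the scaling, and its ranges overlapped. *Snap91* shares the symbol but encodes a clathrin adaptor that forms vesicles during recycling. It was between 291 and 377 CPM in WT mice, with a median of 367, and between 360 and 462 in *Tet2*-KO mice, with a median of 429, so that 5 *Tet2*-KO mice lay above every WT mouse. Its log2 fold change was 0.23 (SE 0.075, edgeR adjusted p = 0.126).

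Among the VAMPs, *Vamp2*, the vesicle SNARE of forebrain terminals, was at 675 ± 78.5 and 806 ± 90.2 CPM (SD, n = 6 mice each), a log2 fold change of 0.26 (SE 0.089, edgeR adjusted p = 0.135). *Vamp8* (ENSMUSG00000050732), a SNARE of endosomes, lysosomes and leukocyte granules, had the opposite sign. It was between 10.7 and 22.4 CPM in WT mice, with a median of 14.5, and between 6.16 and 15.2 in *Tet2*-KO mice, with a median of 8.28. *Tet2*-KO replicates 4 and 5 lay within the WT range, and the other 4 *Tet2*-KO mice lay below every WT mouse. The log2 fold change was -0.72 (SE 0.23, edgeR adjusted p = 0.131). *Vamp3*, the SNARE of recycling endosomes in most cells, was at 34.7 ± 3.91 and 29.5 ± 3.81 CPM (SD, n = 6 mice each), a log2 fold change of -0.24 (SE 0.090, edgeR adjusted p = 0.154). *Vamp5* was at 3.41 ± 1.06 and 2.60 ± 0.837 CPM (SD, n = 6 mice each) with an unadjusted p of 0.124 in edgeR. *Vamp9*, with 121 counts in all, was at 0.612 ± 0.246 and 0.750 ± 0.158 CPM (SD, n = 6 mice each).

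Of the 15 syntaxins, 6 had positive and 9 negative log2 fold changes, with a median log2 fold change of -0.01. At an unadjusted p below 0.05, 2 were higher and 2 were lower. *Stx1a*, a plasma membrane syntaxin of neurons, was at 75.4 ± 9.05 and 97.8 ± 19.7 CPM (SD, n = 6 mice each), a log2 fold change of 0.38 (SE 0.13, edgeR adjusted p = 0.140). Most other syntaxins act in the Golgi apparatus, endosomes or the plasma membrane of non-neuronal cells. The endosomal *Stx7* was at a log2 fold change of -0.02 (SE 0.047) and *Stx3*, a plasma membrane syntaxin, at 0.07 (SE 0.064).

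*Stx11* (ENSMUSG00000039232, chr10:12938209-12964298 in GRCm38) had the most negative log2 fold change and the lowest level per length of the tested genes. It encodes a syntaxin of cytotoxic lymphocytes and myeloid cells, and its loss causes an inherited form of hemophagocytic lymphohistiocytosis. In WT mice its level was 1.40 CPM at the lowest, 2.28 at the median and 3.05 at the highest. In *Tet2*-KO mice it was 0.124 at the lowest, 0.628 at the median and 1.59 at the highest. *Tet2*-KO replicate 4 was the single one that lay within the WT range, and replicates 1 and 6 were lowest. These levels rest on 17 to 47 counts in the WT mice and 2 to 31 in the *Tet2*-KO mice, and the log2 fold change was -1.60 (SE 0.40, edgeR adjusted p = 0.110). *Stx4a*, the plasma membrane syntaxin of non-neuronal cells, was between 17.5 and 24.4 CPM in WT mice, with a median of 21.3, and between 14.8 and 19.6 in *Tet2*-KO mice, with a median of 17.9. Its ranges overlapped widely, with a log2 fold change of -0.24 (SE 0.090, edgeR adjusted p = 0.148). Exons of *Stx4a* overlap exons on the opposite strand, and the strand used in counting is not given in the sources used here, so that its counts are uncertain.

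**Figure D2:**
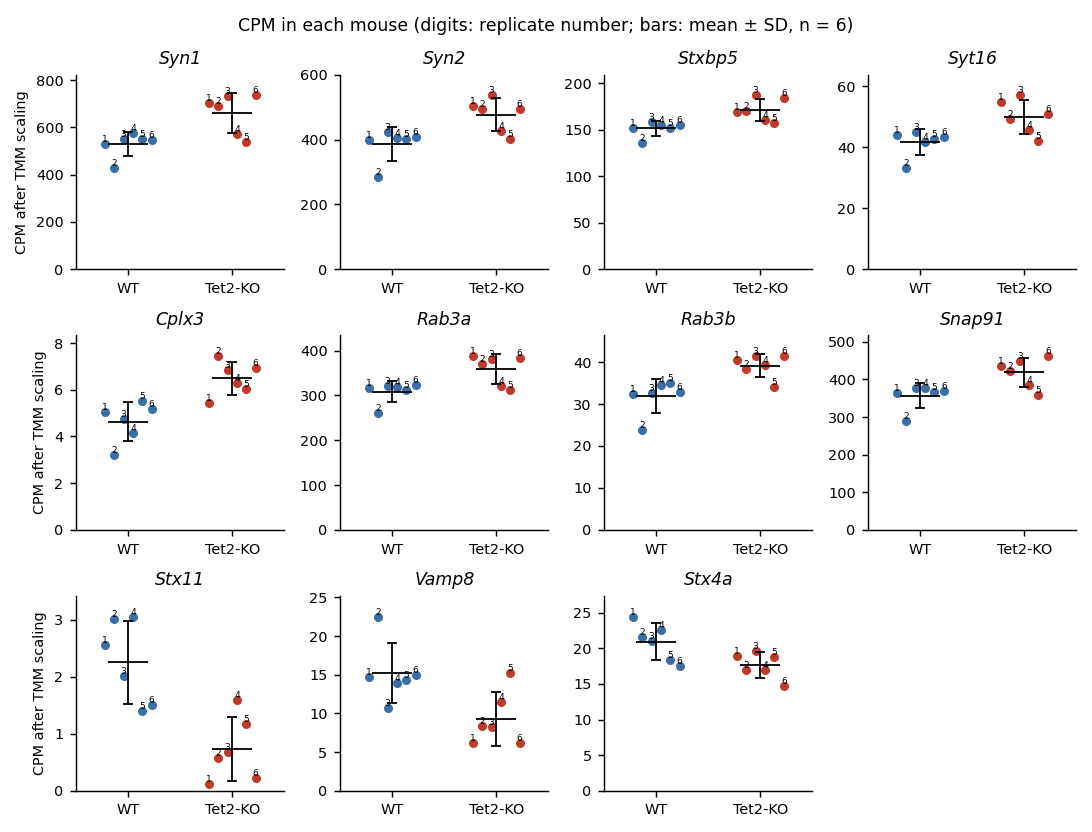
CPM after TMM scaling in each mouse for 11 release machinery genes, with WT mice in blue, *Tet2*-KO mice in red, digits for replicate numbers and bars for the mean ± SD (n = 6 per group). In the 8 genes with a positive log2 fold change WT replicate 2 is the lowest mouse, and replicates 4 and 5 are among the 3 lowest *Tet2*-KO mice.

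Syntaxin-binding proteins chaperone or block syntaxins. Of the 6 tested, 3 had positive and 3 negative log2 fold changes, 2 were higher at an unadjusted p below 0.05 and none was lower, with a median of 0.05. *Stxbp5*, or tomosyn, which inhibits SNARE assembly, was between 136 and 159 CPM in WT mice and between 157 and 187 in *Tet2*-KO mice, with medians of 153 and 169. Its log2 fold change was 0.18 (SE 0.054, edgeR adjusted p = 0.123), so a gene for an inhibitor of release stood beside those that promote it. *Stxbp2*, the partner of *Stx11* in leukocytes, was at 41.8 ± 2.95 and 38.3 ± 3.46 CPM (SD, n = 6 mice each), with an unadjusted p of 0.0690 in edgeR.

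All 3 complexins had positive log2 fold changes, 2 of them at an unadjusted p below 0.05. *Cplx3*, the complexin best known from ribbon synapses of the retina, was between 3.23 and 5.52 CPM in WT mice, with a median of 4.89, and between 5.45 and 7.44 in *Tet2*-KO mice, with a median of 6.57. Only *Tet2*-KO replicate 1 lay below the highest WT mouse, and the log2 fold change of 0.49 (SE 0.13, edgeR adjusted p = 0.110) was the largest of the release machinery genes. *Cplx2*, the main complexin of forebrain excitatory neurons, was at 792 ± 113 and 972 ± 150 CPM (SD, n = 6 mice each), a log2 fold change of 0.30 (SE 0.11, edgeR adjusted p = 0.157). *Cplx1* had a log2 fold change of 0.12 (SE 0.080) with an unadjusted p of 0.153 in edgeR.

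Active zone proteins form the platform at which vesicles are docked and primed. All 11 had positive log2 fold changes, 7 of them at an unadjusted p below 0.05, with a median of 0.22. The giant scaffolds *Bsn* and *Pclo* had log2 fold changes of 0.31 (SE 0.11, edgeR adjusted p = 0.137) and 0.25 (SE 0.089, edgeR adjusted p = 0.142). *Rims1*, which recruits calcium channels and priming factors, was at 237 ± 30.8 and 295 ± 40.8 CPM (SD, n = 6 mice each), a log2 fold change of 0.32 (SE 0.10, edgeR adjusted p = 0.128). *Erc2*, a further scaffold, had a log2 fold change of 0.31 (SE 0.11). *Unc13a*, the main priming factor of forebrain synapses, was at 308 ± 40.3 and 359 ± 55.5 CPM (SD, n = 6 mice each), with an unadjusted p of 0.0615.

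Rab3 proteins are small GTPases on the vesicle that bind Rims proteins. *Rab3a* was between 261 and 323 CPM in WT mice, with a median of 317, and between 313 and 387 in *Tet2*-KO mice, with a median of 375. *Tet2*-KO replicates 4 and 5 lay within the WT range, and the log2 fold change was 0.22 (SE 0.070, edgeR adjusted p = 0.125). *Rab3b* was between 23.8 and 35.1 CPM in WT mice, with a median of 32.7, and between 34.1 and 41.4 in *Tet2*-KO mice, with a median of 39.9, a log2 fold change of 0.30 (SE 0.083, edgeR adjusted p = 0.116). *Rab3d*, the form best known from secretory granules outside the brain, had the only negative log2 fold change of the 4, -0.17 (SE 0.089), with an unadjusted p of 0.0727.

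Every *Tet2*-KO mouse was above every WT mouse in 0.453% of all tested genes and below in 0.641%, shares so small that the count of 0 among the 73 release machinery genes is near them. Of the 36 higher genes, 12 had 5 *Tet2*-KO mice above every WT mouse and 20 had 4. These 36 were picked by their p and sign, so such counts follow in part from the choice. The matching share over all genes was not counted. The overlap came from the same libraries across genes. WT replicate 2 was the lowest of the 12 mice in 35 of the 36 genes, and *Tet2*-KO replicate 5 lay within the WT range in 35 of them. *Tet2*-KO replicate 4 lay within the WT range in 24, whereas replicates 1, 2, 3 and 6 did so in 1 or 2. The genes are therefore not independent counts of one another.

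Levels between genes were compared per kilobase of annotated exon, which counts all exons of a gene and so understates genes with long unused exons. *Vamp2* had the highest mean level at 194 CPM per kilobase, followed by *Snap25* at 182, *Syn1* at 180 and *Cplx2* at 179. *Stx11* had the lowest at 0.355, below *Vamp9* at 0.556. The 25 genes with the highest level, from 32.5 CPM per kilobase upward, all had positive log2 fold changes, with a median of 0.24, and 24 of them had an unadjusted p below 0.05. Of the 24 with the lowest level, up to 6.36 CPM per kilobase, 12 had positive and 12 negative log2 fold changes, with a median log2 fold change of 0.02, and 5 were higher and 3 lower at an unadjusted p below 0.05. The 24 genes in between had 17 positive and 7 negative log2 fold changes, with a median of 0.097. At an unadjusted p below 0.05, 7 of them were higher and 3 lower. The median standard error was 0.089 in the genes with the highest level and 0.085 in those with the lowest. Genes outside the list were not split by level.

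**Figure D3:**
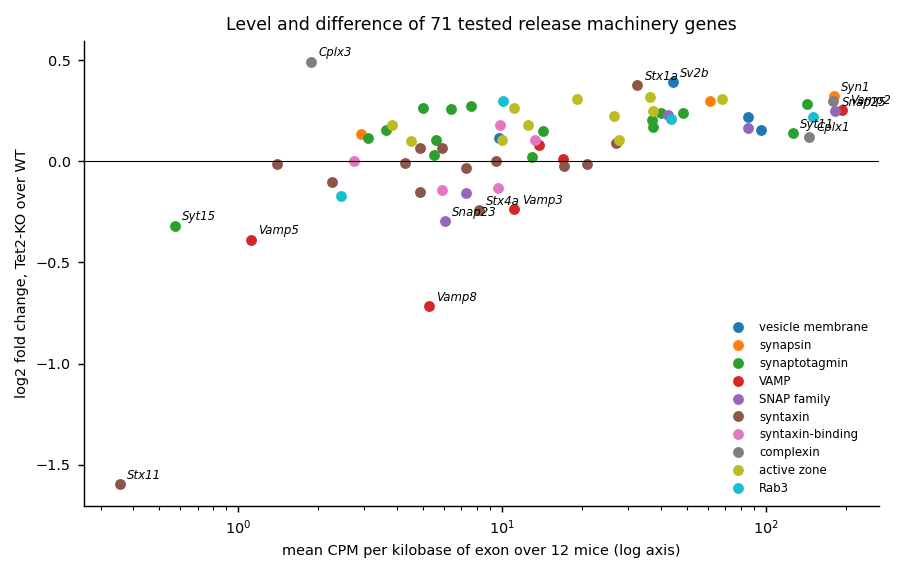
Log2 fold change of *Tet2*-KO over WT against the mean level in CPM per kilobase of exon on a log axis, with 1 point for each of 71 tested genes, coloured by role. All genes drawn at 32.5 CPM per kilobase or more lie above 0, and the points below -0.2 lie at 11.1 CPM per kilobase or less.

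The named genes were also grouped by known function. Of the 22 canonical presynaptic genes, 17 were higher at an unadjusted p below 0.05 and none was lower, with a median log2 fold change of 0.25. Those that missed it were *Unc13a*, *Cplx1*, *Sv2c*, *Syt2* and *Vamp1*, and the sign of *Syt2* and *Vamp1* was not stable. Of 11 genes known for trafficking in glia, leukocytes or all cells, 6 were lower at that threshold and 1, *Syt11*, was higher. Their median was -0.24. That list does not hold every gene of this kind. It leaves out *Snap47*, which was higher at that threshold, and most syntaxins, whose median over all 15 was -0.01. Over all genes tested, 10.8% were higher and 12.2% lower at that threshold. Both lists were written with earlier results of these data known, so their direction is a description. Among 44 other genes of the vesicle cycle, such as transmitter transporters, endocytic proteins and NSF with its adaptors, 42 had positive log2 fold changes, with a median of 0.16. At an unadjusted p below 0.05, 22 were higher and 1 was lower, *Sh3gl1*, the broadly expressed endophilin, which is named here after its value was seen (log2 fold change -0.19, SE 0.073).

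Markers of some cell types moved with these genes. Of 14 general neuron markers, 9 were higher at an unadjusted p below 0.05 in edgeR and none was lower, with a median log2 fold change of 0.18, and their summed level was between 4265 and 5725 CPM in WT and between 5435 and 7159 CPM in *Tet2*-KO mice. Of 6 cortical neuron markers, 3 were higher at that threshold, with a median over the list of 0.21, and of 7 striatal markers 1 was, with a median of 0.08. Of 4 thalamus markers 1 was higher and 1 lower at it, with a median of -0.02. Neither of the 2 tested markers of brainstem and spinal-type neurons had a p below it (median -0.29), and none of 8 microglia markers did (median -0.21). Of 7 activated phagocyte markers, 6 were lower at that threshold, with a median of -1.24, and their summed level was between 877 and 2145 CPM in WT and between 66.0 and 1314 CPM in *Tet2*-KO mice. All 4 monocyte markers and all 5 fibroblast markers were lower at that threshold, with medians of -1.84 and -1.36. Of 6 reactive astrocyte markers, 3 were lower at it (median -0.79), and both tested neutrophil markers were lower past the adjusted threshold (median -2.50). Of 5 red blood cell markers, 3 were higher at an unadjusted p below 0.05 (median 0.54). None of the 6 oligodendrocyte and 6 astrocyte markers had a p below it, with medians of 0.01 and -0.05. No gene of these lists was at 0 in every mouse. Their part in the result was not tested.

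The same mice stood apart in these lists. As the mean of log2 CPM centred on the 12 mice, the canonical presynaptic genes were at -0.42 in WT replicate 2, between -0.09 and -0.02 in the other WT mice, at -0.07 and -0.10 in *Tet2*-KO replicates 4 and 5, and between 0.16 and 0.29 in the other 4. The neuron markers were at -0.32 in WT replicate 2, at -0.06 and -0.07 in *Tet2*-KO replicates 4 and 5, and between 0.11 and 0.27 in the other *Tet2*-KO mice. The activated phagocyte markers ran the other way, at 1.86 in WT replicate 2 and 1.01 in *Tet2*-KO replicate 5, but between -2.94 and -0.97 in *Tet2*-KO replicates 1, 2, 3 and 6. For these markers *Tet2*-KO replicate 4 was at -0.05, below the lowest WT mouse at 0.58. Cerebellar markers summed to between 23.7 and 34.2 CPM in WT mice and to between 22.9 and 88.4 CPM in *Tet2*-KO mice, with replicates 2 and 4 far above the rest. Without those 2 mice, a setting chosen after seeing the data, 35 release machinery genes were higher and 4 lower at an unadjusted p below 0.05. The median log2 fold change was 0.16, and no gene at all passed the adjusted threshold of edgeR. In that fit 4688 of all 20723 genes tested had such a p in either direction.

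**Figure D4:**
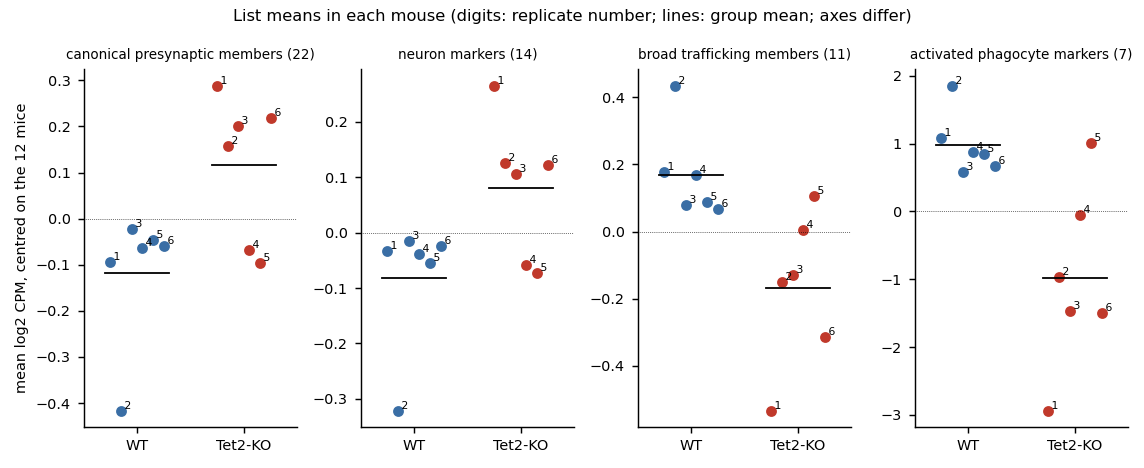
Mean log2 CPM of 4 gene lists in each mouse, centred on the mean of the 12 mice, with digits for replicate numbers and lines for group means; the vertical axes differ. WT replicate 2 is lowest for canonical presynaptic genes and neuron markers and highest for both other lists, and *Tet2*-KO replicates 4 and 5 lie nearest to the WT mice.

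Because neuron markers were higher as well, the release machinery genes were also fitted with the libraries scaled on the 14 neuron markers, so that differences are relative to those markers. With this scaling the median over all genes was -0.17 in place of 0.01, and that of the release machinery genes to -0.04, where the scaling itself sets the median of the neuron markers near 0. In this fit 28 release machinery genes had positive log2 fold changes and 45 negative ones. At an unadjusted p below 0.05, 7 were higher and 15 lower, where 0.478% of all genes were higher and 29.2% lower. The 7 were *Cplx3* at a log2 fold change of 0.32, *Sv2b* at 0.21, *Stx1a* at 0.18, *Syn1* at 0.14, *Rims1* at 0.13, and *Syn2* and *Bsn* at 0.12. *Snap25* was at 0.06, *Vamp8* at -0.89 and *Stx11* at -1.77. None passed the adjusted threshold of edgeR in this fit, and neither did any other of the 20290 genes tested.

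**Figure D5:**
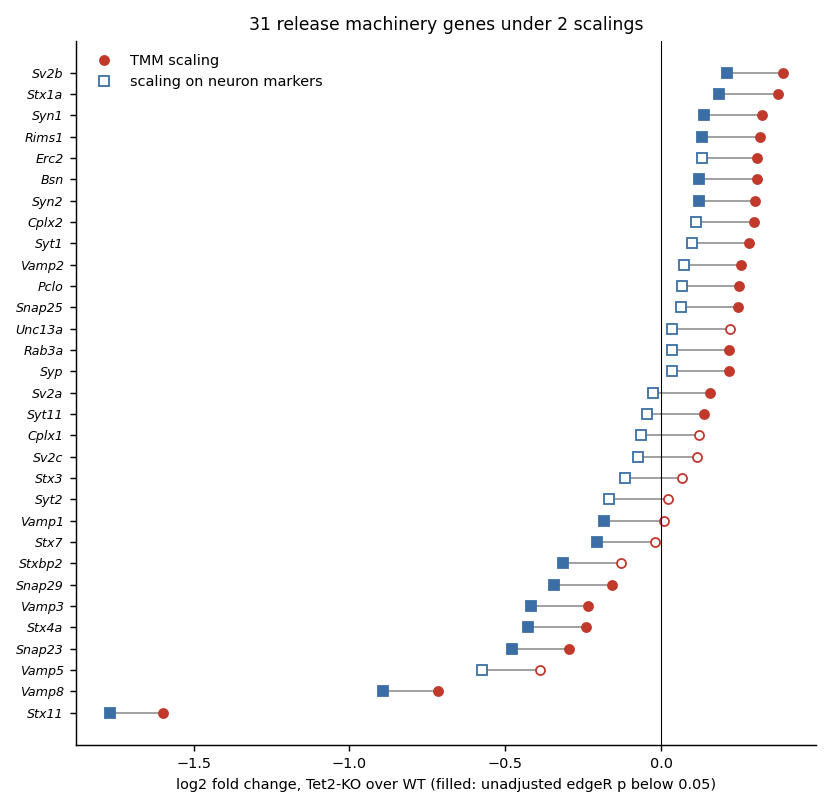
Log2 fold change of *Tet2*-KO over WT for 31 named genes with TMM scaling (red circles) and with scaling on the neuron markers (blue squares), filled where the unadjusted edgeR p was below 0.05. All squares lie to the left of their circles, those of *Sv2b*, *Stx1a*, *Syn1*, *Rims1*, *Bsn* and *Syn2* remain filled to the right of 0, and *Stx11* and *Vamp8* lie farthest to the left under both scalings.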

How the data were processed

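Groups were read from sample titles and genotype labels, since the treatment label calls the cells of *Tet2*-KO mice control cells. Ribosomal RNA was depleted. Per the submitters' processing notes, reads were trimmed with Trimmomatic 0.36, aligned with STAR 2.5.2b to mm10 and counted with featureCounts of Subread 1.5.2, and the authors deposited whole-number counts per gene without normalization. Symbols, coordinates and exon lengths were taken from GENCODE M21 (GRCm38).

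The counts were analysed in R 4.3.3. Genes passing filterByExpr were scaled with TMM and compared by edgeR 4.0.16 with its quasi-likelihood test (robust, no covariates, Benjamini-Hochberg adjustment, threshold 0.05). SE was obtained as the log2 fold change over the root of the F statistic. List means used log2 CPM with a prior count of 2. The alternatives included the DESeq2 1.42.0 Wald test, limma-voom with quality weights (limma 3.58.1), other scalings and filters, a replicate block and single mice left out.

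The genes and lists were chosen with earlier results of these data known. Named genes were the canonical presynaptic and broad trafficking lists, the 10 smallest p values and the 5 smallest among lower genes, the 3 extreme log2 fold changes at each end, the extremes of level and the gene that failed the filter. *Syn3*, *Rab3d*, *Snap47*, *Cplx4*, *Syt8* and genes named only for a promoter motif were chosen after their values were seen. The exons of 22 of the genes, *Stx4a* among them, overlap exons on the opposite strand. The strand used in counting is not given in the sources used here, so the counts of all 22 are uncertain. Vamp7 was not analysed here, and the single values of 2 of the genes are not reported here. Each mouse is 1 library, and libraries of a group differed by more than sampling noise.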

Additional observations from a re-analysis of the deposited data

Results flagged for a closer look

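Within groups of 6 mice, the lowest and highest mouse were compared with the rest by Dixon's rule, which sets apart about 1 in 20 groups by chance. In 22 of 74 groups examined over 37 named genes, 1 mouse was set apart, and it was WT replicate 2 each time, so the genes are not separate events. It was the lowest WT mouse for 18 neuronal genes. Its level was 427 CPM for *Syn1*, where the other WT mice lay between 530 and 576, 283 for *Syn2*, 801 for *Syt1* and 33.1 for *Syt16*. Among SNARE proteins and their partners it was 57.7 for *Stx1a*, 136 for *Stxbp5*, 251 for *Cplx1* and 576 for *Cplx2*. Among active zone genes it was 713 for *Bsn*, where the others lay between 1000 and 1040, 607 for *Pclo*, 177 for *Rims1*, 111 for *Erc2* and 230 for *Unc13a*. On the vesicle side it was 318 for *Syp*, 214 for *Sv2b*, 261 for *Rab3a*, 23.8 for *Rab3b* and 291 for *Snap91*.

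The same mouse was the highest WT mouse for 4 genes of broader expression. Its level was 22.4 CPM for *Vamp8*, where the other WT mice lay between 10.7 and 15, 42.6 for *Vamp3*, 5.52 for *Vamp5* and 47.7 for *Stxbp2*. Its neuron markers were the lowest and its activated phagocyte markers the highest of the 12 mice, and their part in these values was not tested. Without it, 30 release machinery genes were higher and 5 lower at an unadjusted p below 0.05, with a median log2 fold change of 0.12. In that fit 3130 of all 20475 genes tested had such a p in either direction.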

How the results depend on the processing

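The count of release machinery genes past the adjusted threshold, 0 in edgeR, was 16 with the DESeq2 Wald test, 19 with limma-voom, 5 with DESeq2 on the unfiltered table (chosen after seeing the data) and 24 when WT replicate 2 and *Tet2*-KO replicate 5 were both left out. With each mouse left out in turn it ranged from 0 to 26. The number of all tested genes past this threshold moved as well, from 5 in edgeR with all 12 mice. On the unfiltered table DESeq2 gave 921 (0.544% higher and 1.9% lower). Without WT replicate 2 and *Tet2*-KO replicate 5 there were 1554 (2.65% higher and 4.94% lower). Without *Tet2*-KO replicate 5 alone there were 2257. The cause was not tested. Scaling on the neuron markers gave 7 higher and 15 lower genes at an unadjusted p below 0.05 and a median log2 fold change of -0.038. It turned 26 positive log2 fold changes negative, 9 of which had an unadjusted edgeR p below 0.05 with TMM. The named genes among these 9 were *Stxbp5* (-0.0035), *Sv2a* (-0.027) and *Syt11* (-0.044). Named genes that turned without such a p were *Syt2* (-0.17), *Vamp1* (-0.18), *Cplx1* (-0.064), *Sv2c* (-0.074) and *Stx3* (-0.12). Of the genes named after their values were seen, *Snap47* (-0.023) and *Syn3* (-0.038) turned as well. Small log2 fold changes also changed sign elsewhere: *Stx7* was 0.012 with upper quartile scaling and 0.011 with limma-voom, *Syt2* was -0.0025 with limma-voom, and with single mice left out *Syt2* ranged from -0.013 (*Tet2*-KO replicate 1) to 0.077 (*Tet2*-KO replicate 3) and *Vamp1* from -0.027 (*Tet2*-KO replicate 1) to 0.034 (WT replicate 6). The median log2 fold change ranged from 0.12 without WT replicate 2 to 0.17 without *Tet2*-KO replicate 5, and the higher genes at an unadjusted p below 0.05 from 26 without *Tet2*-KO replicate 1 to 39. The sample titles do not say whether same-numbered mice were paired. Their correlations lay between -0.17 and 0.23, which cannot show whether the numbers carry a pairing. A replicate block gave 34 higher and 6 lower release machinery genes at an unadjusted p below 0.05, where 4329 of all 20290 genes had such a p. No gene at all passed the adjusted threshold with the block. The other scalings and filters left these counts of release machinery genes within 1.5 times. *Stx11*, *Vamp5* and *Syt15* are limited by few counts per mouse.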
